A study of Mus musculus with 24 samples.

Results

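Aminoacyl-tRNA synthetases are the enzymes that attach each amino acid to its transfer RNA, the step that fixes which amino acid a codon stands for. The 36 genes described here were taken by symbol, as the cytosolic enzymes (20 genes, among them the subunits Farsa and Farsb of the phenylalanine enzyme) and the enzymes of the mitochondrial matrix (16 genes, with symbols that end in 2). They are 36 of 55487 genes listed and all 36 were among the 14541 genes tested, those with at least 6 of the 24 libraries at a normalized count of 10 or more. The libraries were bulk mRNA of wild-type C2C12 myotubes, multinucleated cells formed by fusion of a mouse skeletal muscle myoblast line and differentiated under 5% O2 until day 5. All cultures were kept for 2 h with their final O2 level in the gas phase. The authors needed these 2 h for O2 in the medium to fall under 1% O2. Unstimulated myotubes stayed at 5% O2 (5CTRL) or were moved to 1% O2 (1CTRL), and electrically stimulated myotubes, which were pulsed after that exposure, were held at 5% O2 (5STIM) or at 1% O2 (1STIM). The pulses took stimulated cultures beyond 2 h, and the authors replaced the medium before and after them. Whether unstimulated cultures were matched for this time and for fresh medium is not stated. If they were not, effects of time, fresh medium and pulses cannot be told apart. Each group had 6 biological replicates. Every library comes from the same line, so replicates are cultures and not animals, and in bulk RNA fewer cells of a type and less RNA per cell cannot be told apart.

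In animal cells the cytosol and the mitochondrion each keep their own protein synthesis, and most amino acids have an enzyme for each compartment encoded by separate nuclear genes. Gars and Kars serve both compartments from a single gene, Eprs charges both glutamate and proline tRNA, and mitochondrial glutamine tRNA is first charged with glutamate and then amidated, so no Qars partner exists in the matrix. Several cytosolic enzymes sit in a multisynthetase complex held together by the scaffold proteins Aimp1, Aimp2 and Eef1e1. Uncharged tRNA activates the kinase Eif2ak4, phosphorylation of the initiation factor eIF2 then favours translation of the transcription factor Atf4, and Atf4 with a C/EBP partner binds a composite element in genes for amino acid supply, many cytosolic synthetase genes among them. That element can be written TGATGNAA, where N is any base, and it is read on either strand.

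The promoter sequences shown here belong to members whose promoter held that element, and they are shown because the transcripts of these genes also moved with O2. A promoter was taken as 250 bases before to 50 bases after the RefSeq start in GRCm38.p6, and 27 of the 36 members had an entry in that table. The element was found in 5 members, all of them cytosolic. The element or its reverse complement TTNCATCA is in capitals, each line is written 5′ to 3′ on the strand of the gene, and each shows 30 bases around the match nearest the start.
Tars, chr15:11399655-11399684, minus strand: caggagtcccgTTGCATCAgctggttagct
Aars, chr8:111033840-111033869, plus strand: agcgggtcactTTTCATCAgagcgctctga
Gars, chr6:55037960-55037989, plus strand: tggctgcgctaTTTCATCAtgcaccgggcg
Iars, chr13:49682126-49682155, plus strand: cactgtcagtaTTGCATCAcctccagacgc
Yars, chr4:129189895-129189924, plus strand: acgagctcagcTGATGCAAcccgacgggac

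Counted from the RefSeq start, with +1 its first base, the match nearest the start began at -15 in Tars, at -30 in Gars, at +4 in Yars, at +8 in Iars, and at +10 in Aars. Yars was the only gene of the 5 to hold it in the forward orientation. Of the 5 genes, only Tars and Gars were called in both comparisons of O2 and in both comparisons of stimulation. The 250 bases before the start of Tars (minus strand) and Gars (plus strand) are given whole, with the element again in capitals.
Tars, chr15:11399659-11399908: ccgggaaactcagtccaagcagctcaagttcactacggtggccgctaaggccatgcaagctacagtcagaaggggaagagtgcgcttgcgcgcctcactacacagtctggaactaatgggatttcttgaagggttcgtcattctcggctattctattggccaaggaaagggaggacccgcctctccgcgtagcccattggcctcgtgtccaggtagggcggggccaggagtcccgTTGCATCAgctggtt
Gars, chr6:55037751-55038000: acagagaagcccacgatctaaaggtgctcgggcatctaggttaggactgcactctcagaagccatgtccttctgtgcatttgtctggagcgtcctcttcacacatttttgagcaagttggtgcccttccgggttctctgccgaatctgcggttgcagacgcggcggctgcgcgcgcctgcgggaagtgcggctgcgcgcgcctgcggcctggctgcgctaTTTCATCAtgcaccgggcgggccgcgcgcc

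Whole reads could be recovered from each library's size factor, and their totals lay between 26541858 and 28173745. Library 1CTRL replicate 1 stood apart, with a median correlation of 0.985 to the other libraries of its group against 0.990 to 0.997 elsewhere, and its deviation from the mean of all libraries rose most with exon length (a slope of 0.0945 per log2 of length, where the next highest was 0.055 in 1STIM replicate 3). Without it the counts of called synthetases were the same in both O2 comparisons. With stimulation under 5% O2 the cytosolic calls went from 8 to 9 (Dars was added), under 1% O2 they stayed at 9 with Lars called in place of Sars, and the calls of the interaction went from 3 to 4 cytosolic and from 1 to 2 mitochondrial genes. The summed level of the 10 myotube markers lay between 410167 and 515687 normalized counts over all libraries, while the endothelial, adipocyte and neuronal markers summed to at most 13.3 and Plin1 and Snap25 were at 0 throughout. The leukocyte markers summed to 27.6 to 70.5. The cycling cell markers (Mki67, Top2a and Ccnb1) summed to 2741 to 3181 in 5CTRL and 3046 to 5050 in 1CTRL. At 1% O2 without stimulation 5 of the 10 myotube markers fell and 0 rose, and of 3 markers of myoblasts and reserve cells 2 rose and 1 fell. Of the 3 cycling cell markers 1 rose (Top2a) and 1 fell (Ccnb1). The part of these shifts in the results for the synthetases was not tested.

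Transcripts of the cytosolic enzymes were abundant and those of the mitochondrial enzymes were close to the middle of all genes. Per kb of the principal transcript, the level in 5CTRL ranged from 668 (Vars) to 7793 (Nars) normalized counts for the cytosolic genes, with a median of 1992, against a median of 176 over all genes tested. Nars (Asn) was followed by Gars (Gly) at 4139 ± 144 (SD, n = 6), Tars (Thr) at 3137 ± 46.4 and Iars (Ile) at 3052 ± 76.2. Eprs (2483 ± 82.7), Kars (2431 ± 68.6) and Rars (2425 ± 84.3) were neighbours in that order that did not differ beyond their spread. At the low end stood Qars (707 ± 17.3) and Vars (668 ± 24.8). Vars and Qars were thus the least abundant cytosolic members per length, although the rank rests on which transcript is taken as principal.

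The mitochondrial genes ranged from 63.1 (Pars2) to 1112 (Lars2) per kb, with a median of 150. Lars2 stood alone in its class, since the next gene, Tars2, was at 389 ± 30.7. For the 13 amino acids with a separate gene for each compartment, the cytosolic level per kb was 1.69 to 38.1 times the mitochondrial level, with a median of 9.18. The smallest ratio was that of leucine (Lars and Lars2) and the largest that of asparagine (Nars and Nars2). Mars2 has the longest principal transcript of the members (11294 bases), so its low level per kb (87.2) comes with a normalized count close to 985.

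The exons of Fars2, Farsb, Vars2, Hars and Cars2 share 3.69% to 7.90% of their 75-base words with genes on the opposite strand, so a part of their reads is uncertain. Replicates of the cytosolic genes lay close together. Their pooled SD within groups was 0.04 to 0.06 on the log2 scale, against 0.07 to 0.17 for the mitochondrial genes other than Lars2. Lars2 varied far more (0.48), and only 7 of 5163 genes with a mean of at least 1000 varied more than it did.

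**Figure D1:**
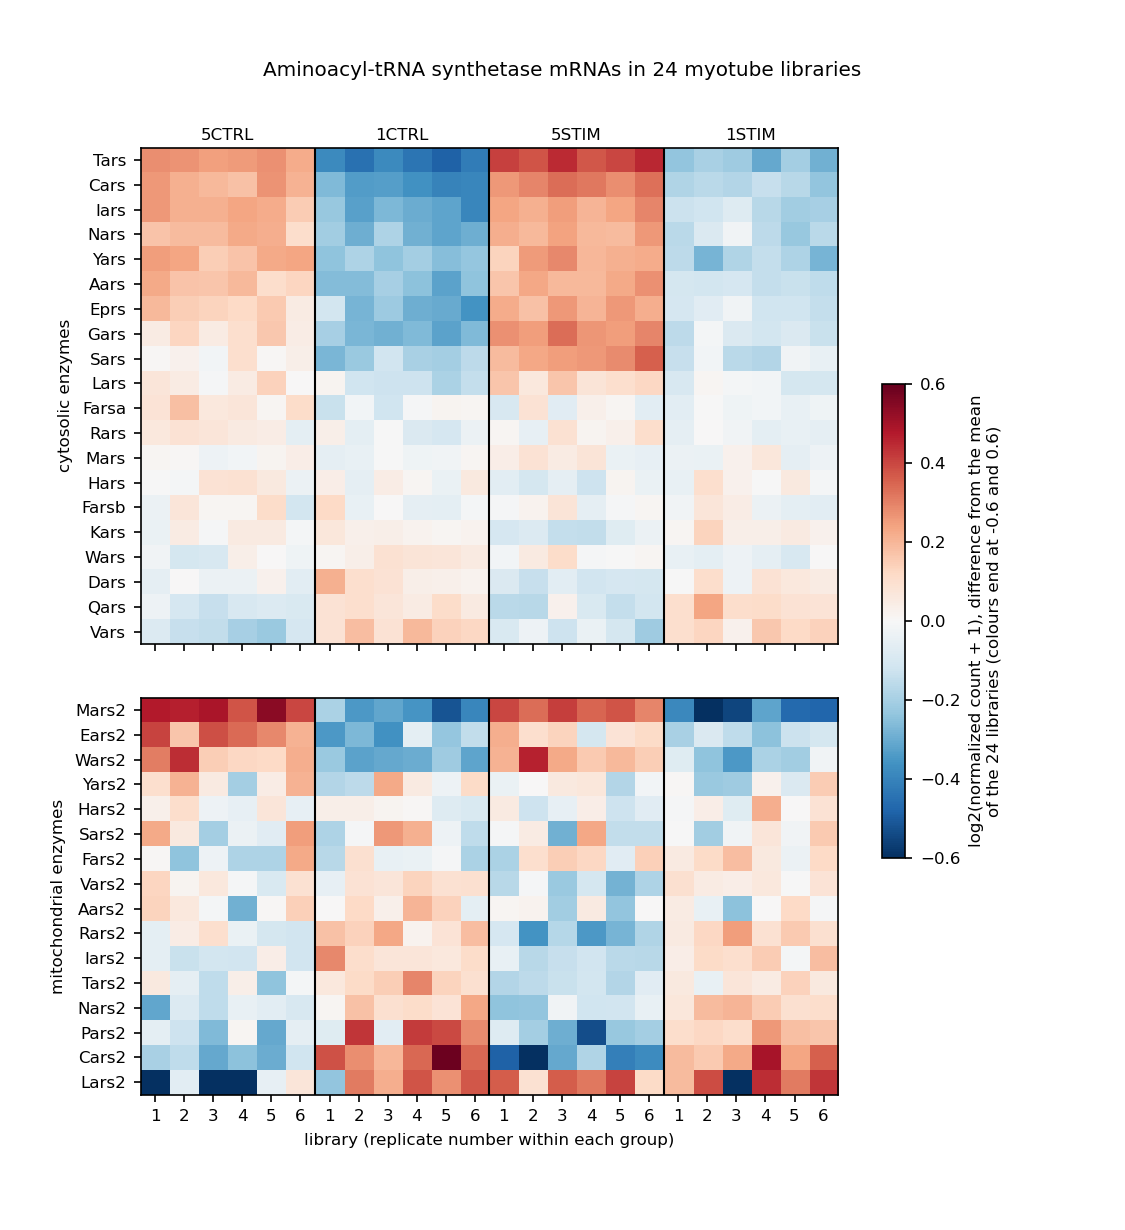
Level of each synthetase transcript in every library, drawn as the difference of log2(normalized count + 1) from the mean of the 24 libraries, with red above and blue below that mean and colours that end at -0.6 and 0.6. Columns are the 6 libraries of each group, and the first 9 cytosolic rows, Tars to Sars, change colour with O2 in both the unstimulated and the stimulated libraries, while Lars2 changes within groups.

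The first comparison asked what 2 h at 1% O2 did in unstimulated myotubes (1CTRL against 5CTRL). Most cytosolic synthetase transcripts were lower at 1% O2, with Tars, Cars and Iars moving most, and a few were higher, led by Vars and Qars. The mitochondrial enzymes went both ways, with Mars2, Ears2 and Wars2 lower and Cars2, Pars2, Nars2, Tars2, Iars2, Rars2 and Lars2 higher. Of the 20 cytosolic genes 12 fell, 4 rose and 4 were not called, and of the 16 mitochondrial genes 3 fell, 7 rose and 6 were not called. Over all genes tested 59.9% were called, 29.4% as higher and 30.5% as lower, so the 60% of cytosolic genes that fell stand beside 30.5%, and the 43.8% of mitochondrial genes that rose beside 29.4%. The median log2 change was -0.15 for the cytosolic genes and 0.05 for the mitochondrial genes, against 0.0015 over all genes tested. After rescaling to the same total these medians were -0.0651, 0.132 and 0.0815, and 10 cytosolic genes fell and 5 rose. Genes were called at a Benjamini-Hochberg adjusted p under 0.05 from a limma fit across all genes tested, and every log2 change here is of log2(normalized count + 1).

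Tars, which charges threonine tRNA (chr15:11382301-11399665), showed the clearest fall among the cytosolic genes. Its normalized count was 12267 to 12762 in 5CTRL (median 12609) and 7501 to 8072 in 1CTRL (median 7794). The groups did not overlap, and the difference was -0.68 ± 0.03 (log2, SE; limma adjusted p = 1.48e-21), so that the level fell by 37.8%. Cars, the cysteine enzyme (chr7:143557230-143600090), had 3604 to 3850 in 5CTRL (median 3693) and 2418 to 2657 in 1CTRL (median 2505), a change of -0.57 ± 0.03 (adjusted p = 1.28e-18). Iars, the isoleucine enzyme and a member of the multisynthetase complex (chr13:49682100-49734267), had 12919 to 13940 in 5CTRL (median 13529) and 8868 to 9917 in 1CTRL (median 9395), a change of -0.52 ± 0.03 (adjusted p = 2.46e-17). In none of these 3 genes did a library at 1% O2 reach the lowest library at 5% O2.

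Nars, the most abundant member per length, was at 20259.9 to 22036 in 5CTRL and 15123 to 16567 in 1CTRL (-0.45 ± 0.03, limma adjusted p = 1.12e-14). Yars (Tyr) was at 4245 to 4562 and 3201 to 3364 (-0.44 ± 0.03, adjusted p = 8.90e-15). Aars (Ala) was at 10886 to 11839 and 8112 to 8812 (-0.42 ± 0.03, adjusted p = 7.24e-16), and 13.2% of the 75-base words in its exons are shared with Exosc6, so reads of the 2 genes could be split between them. Nars fell by 26.7%, Yars fell by 26.3% and Aars fell by 25.3%, and the groups again did not overlap. The smaller falls were those of Eprs (-0.39), Gars (-0.36), Sars (-0.22), Lars (-0.16), Farsa (-0.13) and Rars (-0.08), of which Eprs, Gars and Sars had groups apart. The calls of Farsa and Rars were lost when libraries were rescaled to the same total (-0.05 and -0.004, adjusted p = 0.237 and 0.907).

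Vars, the valine enzyme, rose from 2628 to 2889.6 in 5CTRL (median 2775) to 3252 to 3505 in 1CTRL (median 3352), a change of 0.28 ± 0.03 (limma adjusted p = 2.56e-09). Qars, the glutamine enzyme, rose from 1913 to 2063 (median 1976) to 2182.2 to 2277 (median 2229), a change of 0.17 ± 0.03 (adjusted p = 2.78e-05). Both genes had all 6 libraries at 1% O2 above all 6 at 5% O2. Dars (Asp) rose by 0.11 (adjusted p = 2.90e-03) and Wars (Trp) by 0.09 (adjusted p = 8.47e-03), with groups that overlapped. Mars, Hars, Farsb and Kars had changes between -0.03 and 0.02 and were not called. In all, 9 cytosolic genes had every library at 1% O2 below every library at 5% O2 and 2 had every library above, where 19.9% and 18.2% of all genes tested did so (38.2% in all).

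Among the mitochondrial genes Mars2, which charges the methionine tRNA used for both initiation and elongation in the matrix (chr1:55237177-55248470), fell most. It had 931 to 1044 in 5CTRL (median 992) and 499.5 to 627.5 in 1CTRL (median 562), a change of -0.81 ± 0.05 (limma adjusted p = 5.05e-16), so that the level fell by 43.0%. Ears2, which charges both glutamate tRNA and, as the first step, glutamine tRNA, had 327.5 to 386 in 5CTRL (median 362.5) and 226.5 to 280.0 in 1CTRL (median 245), a change of -0.54 ± 0.06 (adjusted p = 3.23e-09). Wars2, the tryptophan enzyme, had 287 to 359 (median 300.5) and 211 to 228 (median 214), a change of -0.51 ± 0.07 (adjusted p = 3.85e-08). All 3 had groups that did not overlap. The cytosolic partner Mars was at 3500.1 to 3673 and 3435 to 3601 and was not called (-0.03, adjusted p = 0.411).

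Cars2, the mitochondrial cysteine enzyme (chr8:11513977-11550783), rose while Cars fell. It had 133 to 152 in 5CTRL (median 142) and 189 to 249 in 1CTRL (median 209.7), a change of 0.58 ± 0.08 (limma adjusted p = 2.25e-07). Pars2 (Pro) had 122 to 152 and 144 to 203, a change of 0.36 ± 0.09 (adjusted p = 8.01e-04), with groups that overlapped. Nars2 (Asn) rose by 0.24 ± 0.05 (adjusted p = 3.75e-05), Tars2 (Thr) by 0.20 ± 0.05 (adjusted p = 2.10e-04) and Iars2 (Ile) by 0.20 ± 0.04 (adjusted p = 3.67e-05), each without overlap of the groups. Cars2, Nars2, Tars2 and Iars2 are thus mitochondrial partners that were higher where the cytosolic gene of the same amino acid was lower. The same held for Pars2 beside Eprs, for Rars2 beside Rars and for Lars2 beside Lars. Of these, the call of Rars was lost on rescaling, and Lars2 varied widely within groups. The exons of Iars2 share 22.1% of their 75-base words with other genes, mostly Rab3gap2 on the opposite strand, and the counting did not use strand, so its reads cannot be fully told apart. Rars2 rose by 0.17 (adjusted p = 3.95e-03), and Yars2, Hars2, Sars2, Fars2, Vars2 and Aars2 had changes between -0.06 and 0.07 and were not called.

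Lars2, the mitochondrial leucine enzyme (chr9:123366927-123462666), was called higher (0.83 ± 0.28, limma adjusted p = 0.0138), with a wide spread that separates libraries of the same group. In 5CTRL its replicates 1 to 6 had 2057, 5759, 3602, 2425, 5809 and 6321. In 1CTRL replicate 1 had 5097 and the other libraries 6988 to 7806. In 5STIM the range was 6401 to 7961, and in 1STIM replicate 3 had 2819 and the other libraries 6852 to 8183. Low values thus came in 3 libraries of 5CTRL, and in single libraries of 1CTRL and 1STIM that also had the 2 highest length slopes of the series. The 3 low libraries of 5CTRL had length slopes of 0.0305, 0.008 and 0.0027, which is not set apart from the rest of the group (-0.0187 to 0.0416). No 75-base word of Lars2 is shared with an annotated transcript of another gene, and sequence outside annotated transcripts was not searched. In a fit with the length slopes as covariate, Lars2 changed by 0.74 in 1CTRL (adjusted p = 0.0148).

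**Figure D2:**
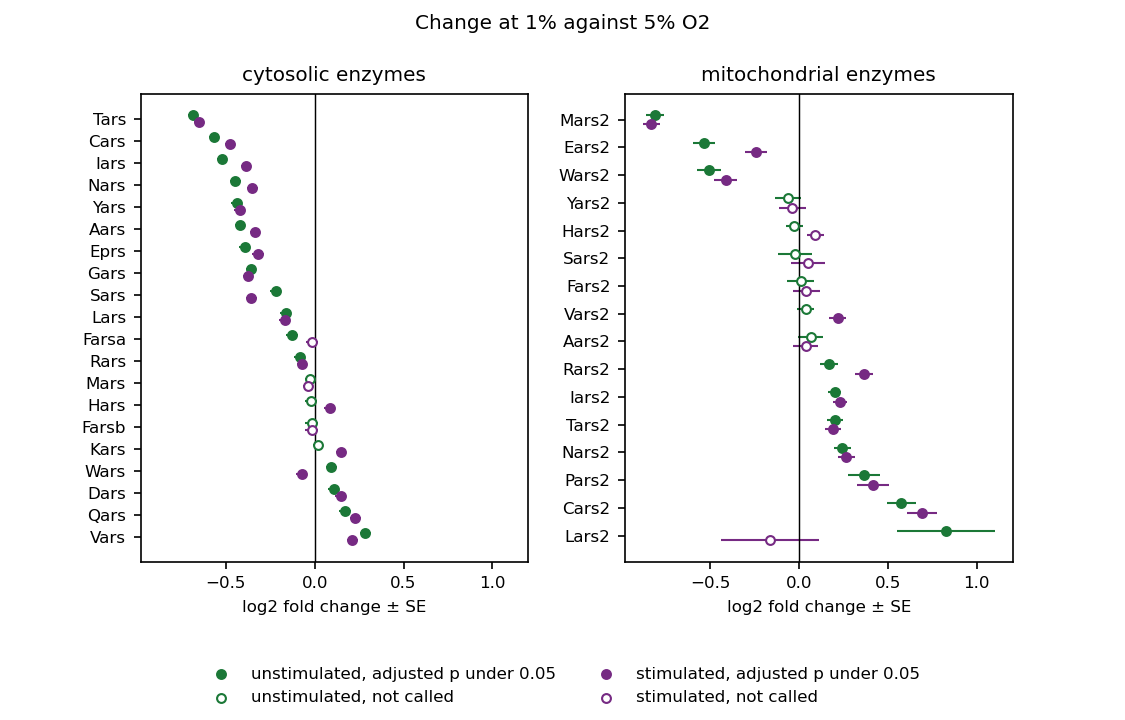
Change of each synthetase at 1% against 5% O2 on the log2 scale, as points with bars of 1 SE, in unstimulated (green) and stimulated (purple) myotubes, with filled points for adjusted p under 0.05. Cytosolic genes lie mostly left of 0, from -0.68 (Tars) to 0.28 (Vars), and mitochondrial genes spread to both sides, from -0.81 (Mars2) to 0.83 (Lars2) in the unstimulated cells.

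Stimulated myotubes gave the same question a second set of libraries, since 1STIM and 5STIM share no library with the unstimulated pair. Of the cytosolic genes 12 fell, 5 rose and 3 were not called, where 28.4% of all genes tested were called lower and 29% higher (57.4% in all). Of the 12 that fell here and the 12 that fell without stimulation, 11 were the same genes (Aars, Cars, Eprs, Gars, Iars, Lars, Nars, Rars, Sars, Tars and Yars). Dars, Qars and Vars rose in both. Of the mitochondrial genes 3 fell and 7 rose, and Ears2, Mars2 and Wars2 fell in both while Cars2, Iars2, Nars2, Pars2, Rars2 and Tars2 rose in both. Groups that did not overlap were found for 10 cytosolic genes below and 4 above, and for 2 mitochondrial genes below and 7 above, where the share over all genes tested was 18.7% in each direction.

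Tars was again the cytosolic gene that fell most, with 13596 to 14352 in 5STIM (median 13914) and 8478 to 9171 in 1STIM (median 8985). The change was -0.65 ± 0.03 (limma adjusted p = 7.53e-21). Cars had 3826 to 4030.3 and 2707 to 2895, a change of -0.48 ± 0.03 (adjusted p = 1.55e-16), and Yars had 4203 to 4673 and 3157 to 3467, a change of -0.42 ± 0.03 (adjusted p = 3.04e-14). Iars (-0.39), Gars (-0.38), Sars (-0.36), Nars (-0.35), Aars (-0.34), Eprs (-0.32) and Lars (-0.17) followed, all without overlap of the groups. Rars and Wars were called lower with changes of -0.07 each, and both calls were lost without any of 6 single libraries and with rescaling to the same total. Qars rose from 1877 to 2145 in 5STIM (median 1930.5) to 2231 to 2484 in 1STIM (median 2262), a change of 0.23 ± 0.03 (adjusted p = 2.36e-07). Vars rose by 0.21 ± 0.03 (adjusted p = 1.01e-06), Dars and Kars by 0.15 each and Hars by 0.08, and Mars, Farsa and Farsb were not called. Qars and Vars therefore stood highest in this comparison as in the unstimulated libraries, with Qars above Vars.

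Mars2 had 877 to 956 in 5STIM (median 921) and 467 to 574.5 in 1STIM (median 516), a change of -0.83 ± 0.05 (limma adjusted p = 3.13e-16). Cars2 had 99.4 to 145 (median 125) and 184 to 232.5 (median 194), a change of 0.69 ± 0.08 (adjusted p = 6.95e-09). Pars2 rose by 0.41, Rars2 by 0.37, Nars2 by 0.27, Iars2 by 0.23, Vars2 by 0.22 and Tars2 by 0.19, and Wars2 fell by 0.41 and Ears2 by 0.24 on the log2 scale. Vars2, on which the unstimulated comparison made no call (0.04), was at 441 to 535 in 5STIM and 536 to 574 in 1STIM. Lars2 was not called here (-0.16 ± 0.28, adjusted p = 0.640).

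Set against its cytosolic partner in unstimulated myotubes, the mitochondrial enzyme thus lost or gained ground at 1% O2 depending on the amino acid. The ratio of the level per kb of Cars to that of Cars2 had a median of 15.5 in 5CTRL (14.3 to 16.96). In 1CTRL its median was 7.13 (5.74 to 7.92). For Tars to Tars2 the medians were 7.88 and 4.43, for Iars to Iars2 8.79 and 5.30, and for Nars to Nars2 37.3 and 23.4. Methionine, tryptophan and valine went the other way. Their medians were 13.9 and 23.9 for Mars to Mars2, 15.4 and 23.5 for Wars to Wars2, and 5.33 and 6.33 for Vars to Vars2. None of these ratios had overlapping ranges between 5CTRL and 1CTRL. Ratios for alanine, arginine and tyrosine were also lower in 1CTRL without overlap, and those for histidine, leucine and serine overlapped. Between 5STIM and 1STIM the ratios for valine and alanine overlapped as well. The medians of Vars to Vars2 were 6.405 in 5STIM and 6.383 in 1STIM. The ratios are given as a description, since the genes printed with values were taken for their changes.

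Of the 8 members of the multisynthetase complex (Dars, Eprs, Iars, Kars, Lars, Mars, Qars and Rars) 4 fell and 2 rose in unstimulated myotubes, with a median change of -0.06. Of the 12 genes outside it 8 fell and 2 rose, with a median of -0.29, where 30.5% of all genes tested fell and 29.4% rose. With libraries rescaled to the same total Rars was not called and Kars was called higher (0.0967), so that 3 members of the complex fell and 3 rose. In stimulated myotubes the medians were -0.06 and -0.34. Among its scaffold proteins Eef1e1 fell in both comparisons (-0.38, limma adjusted p = 1.15e-08, and -0.33, adjusted p = 1.88e-07), Aimp1 was called in stimulated myotubes (0.15) and not in unstimulated myotubes (0.07, adjusted p = 0.0832), and Aimp2 was called in neither (0.01 and -0.10). By the structural class of the enzyme, the 9 cytosolic class I genes had a median of -0.08 and the 10 class II genes one of -0.17 without stimulation. Of the 9 mitochondrial class I genes 4 rose and 3 fell in each O2 comparison, and of the 7 class II genes 3 rose and 0 fell, so the mitochondrial falls (Mars2, Ears2 and Wars2) were all in class I. The differences between these sets were not tested.

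**Figure D3:**
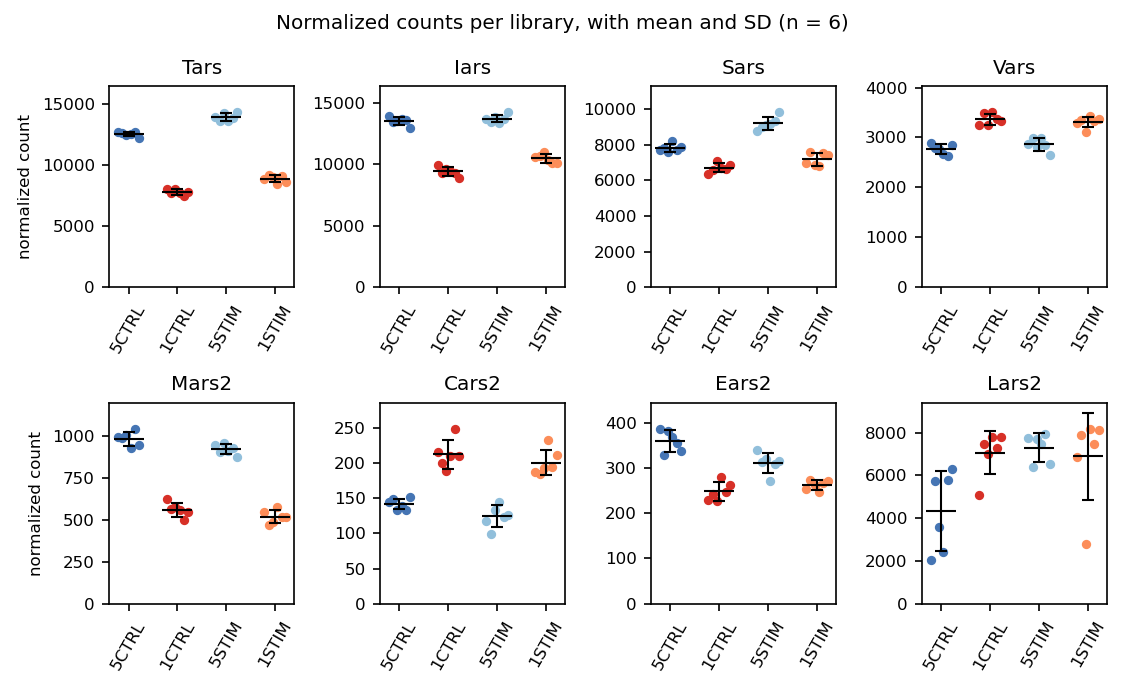
Normalized count per library of 8 members, with the mean and SD of 6 libraries in each group and axes that start at 0. Tars, Iars and Mars2 are lower and Vars and Cars2 higher at 1% O2 with groups that do not overlap, Sars is raised in 5STIM over 5CTRL, and Lars2 shows its low libraries in 5CTRL, 1CTRL and 1STIM.

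Electrical stimulation under 5% O2 (5STIM against 5CTRL) moved fewer synthetase transcripts, and apart from Lars2 (0.88) the called changes lay between -0.21 and 0.24. Of the cytosolic genes 5 rose, 3 fell and 12 were not called, and of the mitochondrial genes 1 rose, 3 fell and 12 were not called, where 21.4% of all genes tested were called (9.44% higher and 12% lower). The cytosolic genes that rose were Sars (Ser), Gars, Tars, Eprs and Cars. Sars went from 7596 to 8219 in 5CTRL (median 7756) to 8763 to 9828 in 5STIM (median 9150.5), a change of 0.24 ± 0.03 (limma adjusted p = 1.05e-06) or 17.8%. Gars went from 9538 to 10356 (median 9749) to 11016 to 11664 (median 11154), a change of 0.19 ± 0.03 (adjusted p = 3.57e-06). Tars rose by 0.15 ± 0.03 (adjusted p = 3.64e-05), again without overlap. These 3 were the cytosolic genes with all stimulated libraries above all unstimulated libraries, where 5.64% of all genes tested had such groups. No member lay wholly below, against 5.44% of all genes tested.

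Eprs (0.09, limma adjusted p = 0.0432) and Cars (0.08, adjusted p = 0.0294) rose by less than 7%, with groups that overlapped. Kars (-0.11 ± 0.03, adjusted p = 2.01e-03), Farsa (-0.10 ± 0.03, adjusted p = 0.0243) and Hars (-0.09 ± 0.03, adjusted p = 0.0290) fell. Eprs, Cars, Farsa and Hars each lost their call when any of several single libraries was left out. Among the mitochondrial genes Ears2 (-0.21 ± 0.06, adjusted p = 0.0128), Rars2 (-0.21 ± 0.05, adjusted p = 1.96e-03) and Vars2 (-0.20 ± 0.05, adjusted p = 2.20e-03) fell, and Ears2 had adjusted p = 0.0506 without 5STIM replicate 4. Lars2 was higher (0.88 ± 0.28, adjusted p = 0.0259), with all 6 stimulated libraries at 6401 or more and all 6 unstimulated libraries at 6321 or less. Its call was lost without 5CTRL replicate 1, 3 or 4, the libraries with its lowest values, at adjusted p between 0.0512 and 0.0704. It was also lost with the length slope as a covariate (0.68, adjusted p = 0.0647) and in a fit of the compared groups alone (adjusted p = 0.0525).

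Under 1% O2 stimulation (1STIM against 1CTRL) raised 8 cytosolic genes and lowered 1, and 11 were not called, where 22.3% of all genes tested were called (11.5% higher and 10.8% lower). Tars went from 7501 to 8072 in 1CTRL to 8478 to 9171 in 1STIM, a change of 0.18 ± 0.03 (limma adjusted p = 1.02e-06). Gars (0.17 ± 0.03, adjusted p = 1.38e-05), Cars (0.17 ± 0.03, adjusted p = 1.18e-05), Eprs (0.17 ± 0.03, adjusted p = 1.90e-04), Iars (0.16 ± 0.03, adjusted p = 6.38e-05) and Aars (0.13 ± 0.03, adjusted p = 1.81e-04) rose by 9.57% to 13.7% together with Tars. Nars rose by 0.13 and Sars by 0.10, and Sars lost its call without any of 5 single libraries (adjusted p up to 0.0706), 1CTRL replicate 1 among them. Wars fell from 2009 to 2129 in 1CTRL to 1867 to 2001 in 1STIM (-0.10 ± 0.03, adjusted p = 0.0102). Of the genes that rose, Tars, Gars, Cars, Iars and Aars had groups that did not overlap, where 5.29% of all genes tested lay wholly above, and Wars alone lay wholly below, where 5.91% did so.

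No mitochondrial synthetase was called under 1% O2 by limma, edgeR's quasi-likelihood test or DESeq2, and 1 of 16 had an unadjusted p under 0.05 in limma (Mars2, -0.12, adjusted p = 0.0849). Cars, Eprs, Gars, Sars and Tars, all 5 cytosolic genes that rose under 5% O2, were among the 8 that rose under 1% O2. The comparisons of stimulation share a group each with those of O2, so their values are given side by side. Iars, for instance, changed by 0.02 with stimulation under 5% O2 and 0.16 under 1% O2, and by -0.52 and -0.39 with O2. In stimulated myotubes at 1% O2 the level of Iars was 10067 to 11033, above the 8868 to 9917 of 1CTRL and below the 12919 to 13940 of 5CTRL.

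**Figure D4:**
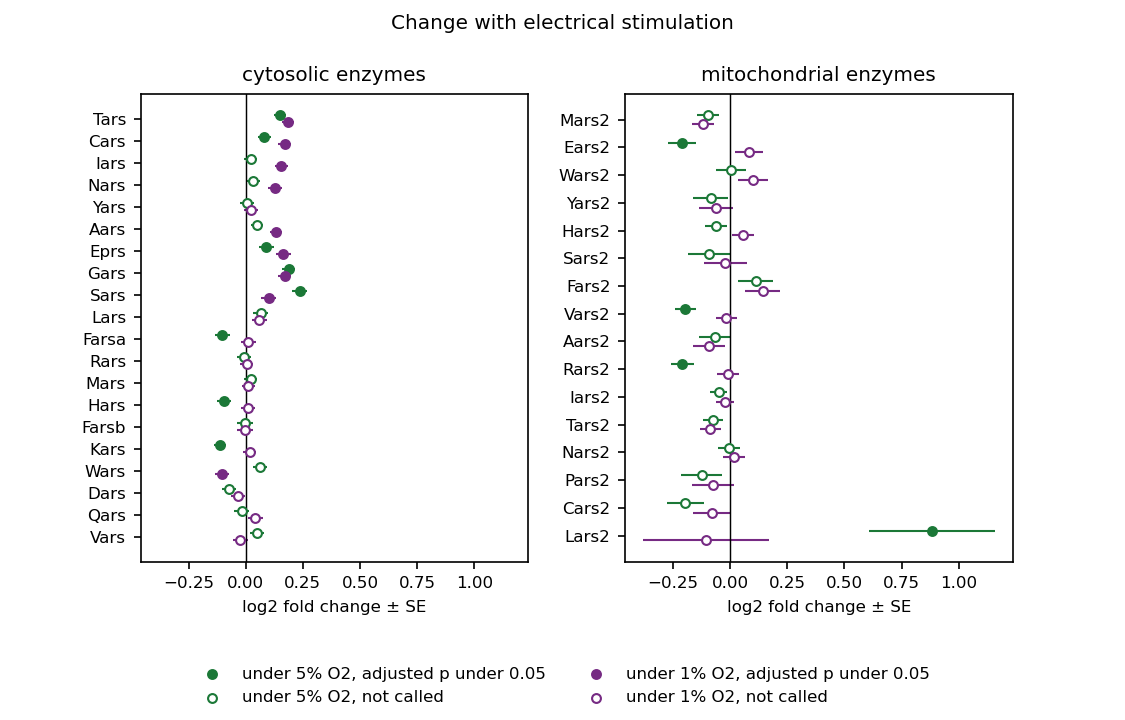
Change of each synthetase with electrical stimulation on the log2 scale, as points with bars of 1 SE, under 5% O2 (green) and 1% O2 (purple), with filled points for adjusted p under 0.05. Most points lie within 0.25 of 0 and the called cytosolic genes reach 0.24 (Sars), while Lars2 stands at 0.88 under 5% O2 with a bar longer than any other.

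The interaction, the response to stimulation under 1% O2 minus that under 5% O2, was called for 3 cytosolic genes and 1 mitochondrial gene, where 11.3% of all genes tested were called (5.88% positive and 5.43% negative). Wars had -0.17 ± 0.04 (limma adjusted p = 8.77e-03), with a response of 0.06 under 5% O2 and -0.10 under 1% O2. Kars had 0.13 ± 0.04 (adjusted p = 0.0221), from -0.11 and 0.02, and Iars had 0.13 ± 0.04 (adjusted p = 0.0247). Ears2 had 0.29 ± 0.09 (adjusted p = 0.0248), from -0.21 and 0.08. Wars changed at 1% O2 by 0.09 without and -0.07 with stimulation, and Ears2 by -0.54 without and -0.24 with it. The calls of Iars (adjusted p = 0.0515 to 0.0529 without 1CTRL replicate 6 or 1STIM replicate 3) and Ears2 (0.0554 without 5STIM replicate 4) each rested on single libraries. Sars (-0.14, adjusted p = 0.0530) and Lars2 (-0.99 ± 0.39, adjusted p = 0.115) were not called, and neither was Tars (0.03, adjusted p = 0.618).

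The genes around the synthetases were read from lists of the pathway. Their counts stand beside the shares over all genes tested, which were 29.4% higher and 30.5% lower at 1% O2 without stimulation, 29% and 28.4% with it, 9.44% and 12% with stimulation under 5% O2, and 11.5% and 10.8% with stimulation under 1% O2. Of 18 genes of the Atf4 axis 10 fell and 4 rose at 1% O2 without stimulation (median -0.37), and 13 fell and 3 rose with stimulation (median -0.53). Stimulation raised 16 and lowered 0 of them under 5% O2 (median 0.67), and raised 11 and lowered 2 under 1% O2 (median 0.55). Atf4 itself had 8903 to 10561 in 5CTRL, 5482 to 7026 in 1CTRL, 11724 to 12804 in 5STIM and 7593 to 8827 in 1STIM. Its transcript was thus lower at 1% O2 (-0.59 ± 0.05 in each comparison, limma adjusted p = 8.98e-12 and 9.66e-12) and higher after stimulation (0.37 and 0.36, adjusted p = 7.58e-07 and 6.96e-07), and its interaction was -0.004 (adjusted p = 0.981).

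Asns, asparagine synthetase, moved in the same directions, by -0.36 and -0.40 at 1% O2 and by 0.19 and 0.15 with stimulation, all called. Trib3, a pseudokinase gene of the stress response, was not called at 1% O2 without stimulation (0.08). With stimulation it rose by 1.74 under 5% O2 and 1.12 under 1% O2. Its level was lower in 1STIM (412 to 575) than in 5STIM (704 to 783). Ddit3, which encodes the stress factor CHOP, was not called at 1% O2 without stimulation (-0.14, adjusted p = 0.108), rose by 0.22 at 1% O2 with stimulation and rose by 0.63 and 0.98 with stimulation. It lies on the strand opposite to Mars and overlaps 1.99% of the exon bases of Mars, and no 75-base word of Mars is shared with another gene. Eif2ak4, the kinase that senses uncharged tRNA, was called in no comparison (0.01 to 0.12). Of the other 3 kinases of that response, Eif2ak2 and Eif2ak3 rose and Eif2ak1 fell at 1% O2 without stimulation, by 0.29, 0.32 and -0.11.

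Genes of amino acid supply were also mostly lower at 1% O2. Of 11 amino acid transporters tested of 12 listed, 7 fell and 3 rose at 1% O2 without stimulation (median -0.53) and 7 fell and 2 rose with it (median -0.66), and stimulation raised 9 and lowered 0 under 5% O2 and raised 8 and lowered 1 under 1% O2. The glycine transporter gene Slc6a9 changed by -1.24 and -1.36 at 1% O2 and by 0.67 and 0.55 with stimulation, and the cationic amino acid transporter gene Slc7a1 by -0.99 and -1.11 at 1% O2. Slc38a1, a neutral amino acid transporter gene, rose by 1.08 at 1% O2 without stimulation. Of 13 genes of serine, glycine and proline synthesis 9 fell and 2 rose in each O2 comparison (medians -0.17 and -0.44), with Mthfd2 (-0.56 and -0.67) and Psph (-0.50 and -0.70) among them, and stimulation raised 9 under 5% O2 and 6 under 1% O2 and lowered 2 under each. These lists overlap the known targets of Atf4, so they are not independent of that axis.

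Of the MYC network 9 of 10 listed genes were tested. Myc, whose product binds CACGTG, was at 1751 to 2189.8 in 5CTRL and 897 to 1159 in 1CTRL and changed by -0.94 and -0.84 at 1% O2 (limma adjusted p = 3.66e-10 and 2.51e-09) and by 0.41 and 0.50 with stimulation. Its antagonist Mxi1 rose by 2.37 and 1.93 at 1% O2. The network as a whole had 4 genes higher and 4 lower without stimulation and 3 higher and 4 lower with it. Of 17 genes of amino acid sensing to mTORC1, 9 rose and 5 fell at 1% O2 without stimulation and 7 rose and 4 fell with it, and stimulation raised 8 under 5% O2 and raised 10 and lowered 1 under 1% O2. Ddit4, an inhibitor of mTORC1, rose by 2.40 and 1.39 at 1% O2, and by 0.82 with stimulation under 5% O2, and was not called with stimulation under 1% O2 (-0.19, adjusted p = 0.375).

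Of the 5 cytosolic elongation factors, which act on charged tRNA, 1 rose (Eef1g, 0.18) and 1 fell (Eef1b2, -0.09) at 1% O2 without stimulation, 2 rose with it, and 2 fell with stimulation under 5% O2. Of the 10 mitochondrial translation factors 3 rose and 2 fell without stimulation and 5 rose and 1 fell with it, and 5 fell with stimulation under 5% O2. Of the 4 partners of mitochondrial charging (Qrsl1, Gatb and Gatc of the amidotransferase and Mtfmt, which formylates initiator methionine tRNA) only Qrsl1 was called without stimulation (-0.22, limma adjusted p = 1.40e-03), and Gatb, Gatc and Mtfmt rose in stimulated myotubes (0.21, 0.37 and 0.24). Of 6 genes of tRNA proofreading and recycling, 1 rose and 1 fell at 1% O2 with stimulation and 1 fell with stimulation under 5% O2, and limma, edgeR and DESeq2 called 0 without stimulation (2 at an unadjusted p under 0.05). With stimulation under 1% O2 these tools called 0 genes of the elongation factors, the mitochondrial translation factors, the charging partners and the proofreading list (0, 1, 0 and 1 at an unadjusted p under 0.05).

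**Figure D5:**
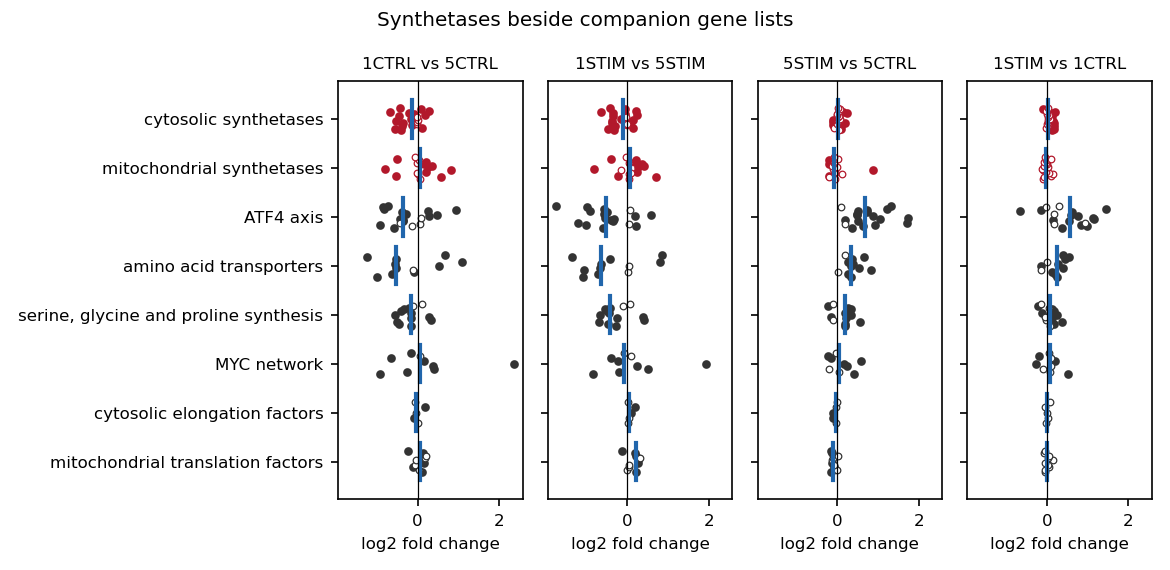
Log2 fold change of each gene in the synthetase classes and in 6 of the companion lists, in 4 panels for the 4 pairwise comparisons, with filled points for adjusted p under 0.05 and a blue bar at the median of the list. The cytosolic synthetases have medians of -0.15 and -0.12 at 1% O2 and 0.03 in both comparisons of stimulation, and the Atf4 axis has -0.37, -0.53, 0.67 and 0.55.

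The element TGATGNAA, shown in the sequences above, was present on either strand in 3.97% of 32851 promoters of the RefSeq table and in 2.75% of 10519 genes tested that had one. Of the cytosolic synthetases with a promoter 5 of 13 held it (Aars, Gars, Iars, Tars and Yars), and of the mitochondrial ones 0 of 14. Among the cytosolic genes it was in 5 of the 8 with a promoter that fell at 1% O2 without stimulation, in 0 of the 2 that rose and in 0 of the 3 not called. Eprs, Sars and Farsa fell without it. Across all genes tested it was held by 3.10% of those that fell, 2.49% of those that rose and 2.66% of those not called in that comparison, and by 5.69% of those that rose with stimulation under 5% O2. In the Atf4 axis list 7 of 16 promoters held it (Asns, Atf3, Chac1, Fgf21, Nupr1, Trib3 and Vldlr). These did not all move alike at 1% O2 without stimulation. Vldlr rose, with a mean of 1129 in 5CTRL and 2174 in 1CTRL, and Trib3 was not called. Asns, Atf3, Chac1, Fgf21 and Nupr1 had lower means in 1CTRL. A match is a run of letters and was not tested as a binding site.

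The E-box CACGTG, the same on both strands, was in 7.15% of all promoters and in 11.6% of those of tested genes. It was found in Aars, Iars, Tars, Farsb and Ears2. The core ACGTG of the hypoxia response element, which is part of CACGTG and so overlaps it, was in 19.6% and 29% and was found in 6 of 13 cytosolic promoters (Aars, Eprs, Farsb, Iars, Kars and Tars) and 4 of 14 mitochondrial promoters (Ears2, Nars2, Rars2 and Wars2). Aars, Iars and Tars held all 3 sequences. Cars, Hars, Lars, Nars, Rars, Vars, Wars, Hars2 and Pars2 had no matched promoter and are not described here.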

How the data were processed

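RNA of 24 C2C12 cultures was sequenced in 4 groups of 6. The authors aligned single-end stranded mRNA reads to GRCm38 (STAR 2.5.4b, after FastQC 0.11.7), estimated gene counts with RSEM 1.3.0 without using strand, and deposited an expression signal, the gene count divided by the DESeq2 size factor of the library. A second deposited table holds only fold changes and p-values of the authors' comparisons and was not used. Whole reads were recovered from the smallest step of each library (100% of values whole within 0.01). The sum of recovered reads gives the depth.

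Log2(normalized count + 1) of the 14541 genes with at least 10 in at least 6 libraries entered a single limma 3.58.1 fit (R 4.3.3, trend and robust) of all 4 groups. P-values were adjusted over all of these genes by the Benjamini-Hochberg method and called under 0.05. The fit was tested on simulated data. Levels per kb used the principal transcript of GENCODE M21, which held 99.5% of the IDs. Replicate numbers were not used as a block. Full statistics were given for called members, at most 6 rises and 6 falls per class and comparison, and for at most 4 called genes of each companion list, with 9 fixed names (Atf4, Asns, Ddit3, Eif2ak4, Myc, Ddit4, Aimp1, Aimp2, Eef1e1). The members and lists were chosen with earlier results of these data known. Alternatives included edgeR 4.0.16 and DESeq2 1.42.0 on whole reads, limma voom, a pseudocount of 10, no filter, an adjusted p under 0.01, libraries rescaled to the same total, array weights, the compared groups alone, the length slope as covariate, a replicate block and leaving out each library. 1 promoter sequence is not reported here.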

Additional observations from a re-analysis of the deposited data

Results flagged for a closer look

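In 11 of 144 groups of 6 libraries (36 genes in 4 groups) 1 library stood apart from the other 5 by Dixon's criterion (gap over range above 0.625), which chance alone does in about 5% of groups. Of these, 5 were in 1CTRL replicate 1, the library with the highest length slope. It had 2594.7 for Farsb (others 2292 to 2389.7), 7315.8 for Lars (others 6334 to 6647), 2496.3 for Iars2 (others 2138 to 2204), 5096.9 for Lars2 (others 6988 to 7806) and 519.3 for Vars2 (others 564 to 589.7). Library 1STIM replicate 2 was high for Kars, at 5290.2 (others 4864 to 5008), and for Qars, at 2484.4 (others 2231 to 2278). Library 1STIM replicate 3 was low for Lars2, at 2818.9 (others 6852 to 8183). The remaining 3 were Rars in 5CTRL replicate 6, at 4767.5 (others 5121 to 5263), Tars2 in 1CTRL replicate 4, at 1192.7 (others 1016 to 1077), and Wars2 in 5STIM replicate 2, at 364.0 (others 293 to 309.9).

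The response to stimulation differed with O2, by the interaction in the limma fit, for 4 of 36 members, a share of 11.1% where 11.3% of all genes tested were called. The difference was 0.13 (0.1339) for Iars, 0.13 (0.1291) for Kars, -0.17 (-0.1657) for Wars and 0.29 (0.2924) for Ears2 on the log2 scale. The call of Iars was lost without 1CTRL replicate 6 or 1STIM replicate 3, and that of Ears2 without 5STIM replicate 4.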

How the results depend on the processing

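The 11 alternatives gave 260 recomputed counts and medians, of which 239 stayed within the limits set for each and 21 moved. Of the single-gene values 0 of 7658 changed sign while called and 216 were no longer called. Rescaling the libraries to the same total shifted all genes upward (medians of 0.08, 0.07, 0.02 and 0.02) and split the calls as 5670 higher and 3378 lower in 1CTRL against 5CTRL (4271 and 4437 as reported), 5466 and 3182 in 1STIM against 5STIM (4210 and 4136), 1860 and 1133 in 5STIM against 5CTRL (1372 and 1743) and 2142 and 1293 in 1STIM against 1CTRL (1668 and 1577). Cytosolic medians then were -0.0651, -0.0511, 0.0592 and 0.0529 in these comparisons, and the mitochondrial medians at 1% O2 were 0.1321 and 0.1397. Under that scaling 10 cytosolic genes fell and 5 rose in each O2 comparison, with Farsa and Rars no longer called without stimulation and Rars and Wars with it.

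With the length slope as covariate the cytosolic median in 1STIM against 5STIM was -0.1456, 1 mitochondrial gene was called in 1STIM against 1CTRL, and the mitochondrial interaction had 2 calls and a median of 0.0998. Without a filter 5 cytosolic genes were called in 5STIM against 5CTRL and 0 mitochondrial genes in the interaction. At an adjusted p under 0.01, 5STIM against 5CTRL had 4 cytosolic, 2 mitochondrial and 1944 calls over all genes, and the interaction 1, 0 and 830. Array weights gave 3 mitochondrial interaction calls and DESeq2 gave 2. Leaving out single libraries moved the cytosolic calls in 5STIM against 5CTRL between 5 and 9 (5 without 5CTRL replicate 2, 3 or 4 or 5STIM replicate 3, 4 or 6), the mitochondrial calls in 1STIM against 1CTRL between 0 and 1 (1 without 1CTRL replicate 5 or 1STIM replicate 4) and those of the interaction between 0 and 2 (0 without 5STIM replicate 4, 2 without 5CTRL replicate 5 or 6, 1CTRL replicate 1 or 3 or 5STIM replicate 1 or 2). The cause of these moves was not tested.

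Same-numbered libraries did not vary together (13 of 36 pairs correlated over 0.1, median -0.008, and 5 of 24 libraries were closest to their own number). With the replicate block the mitochondrial interaction had 2 calls, and the cytosolic calls were 16, 17, 8, 9 and 4.

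Of 78 calls on members 14 were lost under some alternative fit or left-out library at an adjusted p under 0.05. The stricter threshold of 0.01 is not part of that count. It ended further calls, such as those of Lars2 in 1CTRL against 5CTRL and of Kars in the interaction. Single libraries ended those of Hars in 1STIM against 5STIM (5STIM 2 or 4, 1STIM 2 or 5, adjusted p up to 0.0728), Rars (5STIM 3 or 6, 1STIM 1, 4, 5 or 6, up to 0.102) and Wars (5STIM 2 or 3, 1STIM 1, 2, 4 or 5, up to 0.124). In 5STIM against 5CTRL they ended those of Cars (5CTRL 2, 3 or 4, 5STIM 3, 4 or 6, up to 0.0740), Eprs (5CTRL 2, 3, 4 or 6, 5STIM 1, 3, 4, 5 or 6, up to 0.113), Farsa (5CTRL 2, 5STIM 1, 3 or 6, up to 0.0823), Hars (5CTRL 3, 4 or 5, 5STIM 2 or 4, up to 0.0817), Ears2 (5STIM 4) and Lars2 (5CTRL 1, 3 or 4). That of Sars in 1STIM against 1CTRL was lost without 1CTRL 1 or 2 or 1STIM 2, 5 or 6. Mitochondrial genes had lower counts, down to 99.4, and a larger spread between replicates than cytosolic genes, so smaller changes could be called among the cytosolic genes.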
